A study of Mus musculus with 28 samples.

Results

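The gene for the epidermal growth factor receptor, Egfr, and 8 genes for growth factors of the same family (Egf, Areg, Ereg, Hbegf, Tgfa, Epgn, Btc and Nrg1) were followed through the healing of punch wounds in mouse back skin. These 9 genes were chosen by name. All 9 were found among the 29068 gene symbols of the count table, and all 9 passed the filter on low counts, as did 18107 genes in total. RNA came from the whole wound site, scab and epithelial margins included, of C57BL/6J mice whose wounds healed naturally. Per the methods of the study, the mice were MLKL+/+, of both sexes and 8 weeks old, so no gene deletion or drug separates the groups, which differ in the day of collection. The groups were Day0, which the labels treat as the control, and Day3, Day5, Day7, Day10, Day12 and Day14, with 4 libraries a day and 28 in all. The methods call the earliest day 1 and count the day of injury as day 1, and the sources used here do not settle whether the control tissue is intact or freshly wounded. Nothing states that the 4 libraries of a day come from separate mice, so the p-values measure the spread between these libraries, which may be technical.

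Growth factors of the EGF family are made as proteins anchored in the cell membrane. Proteases such as ADAM17 and ADAM10 cut them loose, and the freed ligand binds a receptor on the same or a neighbouring cell. EGFR (also called ERBB1) binds EGF, TGF-alpha, amphiregulin (Areg), epigen (Epgn), betacellulin (Btc), HB-EGF (Hbegf) and epiregulin (Ereg), and some of these, among them HB-EGF, betacellulin and epiregulin, also bind ERBB4. Neuregulin 1 (Nrg1) is a relative that binds ERBB3 and ERBB4 and not EGFR itself. In skin, EGFR sits mainly on basal keratinocytes and in hair follicles, and its activation drives keratinocytes to divide and to migrate over a wound.

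Of the ligand genes, 4 lie side by side on mouse chromosome 5 (build GRCm38), in the order Epgn, Ereg, Areg and Btc, and no other protein-coding gene of the GENCODE M21 annotation lies within the 375531 bases they span. Epgn (chr5:91027464-91035215), Ereg (chr5:91074622-91093646) and Areg (chr5:91139599-91148432) are on the forward strand and Btc (chr5:91357261-91402994) is on the reverse strand. The sequences just upstream of Epgn, Areg and Btc are shown because Epgn and Areg were higher on Day3 than on Day0 while their neighbour Btc was lower. They are RefSeq promoters of GRCm38.p6, written 5′ to 3′ on the strand of the gene, and end at the base before the first annotated start. Capitals mark a cAMP response element (TGACGTCA) or a TATA box (TATAAA), searched on both strands together with the AP-1 motif (TGANTCA).
Epgn, chr5:91027267-91027463, forward strand: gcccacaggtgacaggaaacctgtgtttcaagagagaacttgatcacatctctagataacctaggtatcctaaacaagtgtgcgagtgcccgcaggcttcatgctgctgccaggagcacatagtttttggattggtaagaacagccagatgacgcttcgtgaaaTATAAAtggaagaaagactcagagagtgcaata
Areg, chr5:91139349-91139598, forward strand: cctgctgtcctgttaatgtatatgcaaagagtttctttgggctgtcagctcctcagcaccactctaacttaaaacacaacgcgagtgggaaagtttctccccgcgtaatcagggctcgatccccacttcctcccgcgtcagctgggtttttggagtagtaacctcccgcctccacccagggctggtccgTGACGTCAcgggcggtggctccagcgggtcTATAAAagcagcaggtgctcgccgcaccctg
Btc, chr5:91402995-91403244, reverse strand: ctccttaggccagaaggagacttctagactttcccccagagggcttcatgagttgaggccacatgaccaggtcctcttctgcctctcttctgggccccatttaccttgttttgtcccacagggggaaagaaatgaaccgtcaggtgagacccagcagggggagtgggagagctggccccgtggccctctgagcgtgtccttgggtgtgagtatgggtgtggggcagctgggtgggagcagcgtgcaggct

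The Areg window held a TATA box that began 31 bases before the start and a cAMP response element that began 61 bases before it. The Epgn window held a TATA box that began 33 bases before the first annotated start. The Btc window held none of the 3 motifs. Over the 32851 promoter windows of the table, each of 250 bases, 12.4% held a TATA box, 1.55% a cAMP response element and 6.75% an AP-1 motif. The AP-1 motif was found in none of the 7 windows listed for 6 of the 9 genes (Egf, with 2 windows, Epgn, Areg, Btc, Tgfa and Egfr). A match is a run of letters and is not evidence of binding. The other genes are Egf (chr3:129677565-129755316, reverse strand), Tgfa (chr6:86195223-86275719, forward), Nrg1 (chr8:31814551-32884029, reverse), Egfr (chr11:16752203-16918158, forward) and Hbegf (chr18:36504927-36515805, reverse).

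Library totals ranged from 36706513 to 40655764 counts. The Day0 libraries varied more than those of other days, with a biological coefficient of variation of 26.4% against 5.70% to 10.8%. The edgeR test used below shares 1 estimate of spread per gene across all days. Its standard errors and p-values against Day0 therefore do not allow for this wider spread and may be too small. Within Day0, replicates 2 and 3 stood apart from replicates 1 and 4. The summed level of 6 fibroblast markers, for example, was 42500 and 41100 CPM (counts relative to the TMM-scaled library total) in replicates 2 and 3 and 18300 and 10400 CPM in replicates 1 and 4. Each comparison with Day0 was therefore also made with either pair of Day0 libraries alone. The closest 2 libraries of any day differed by more than counting noise (median chi-square of 1.46 against 0.455), so none was treated as a copy. The 7 basal keratinocyte markers, which mark epidermis, were detected on every day and summed to 3140 to 8340 CPM. All 6 comparisons with Day0 share the same 4 control libraries.

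On Day3, 6 of the 9 genes were called higher than on Day0 by edgeR's quasi-likelihood test (Benjamini-Hochberg adjusted p under 0.05) and 2 were called lower. Of all genes tested, 31.8% were called higher and 34.8% lower. Areg, Epgn, Nrg1, Hbegf, Tgfa and Ereg made up the higher group, Egf and Btc the lower one, and Egfr was not called. The median log2 fold change of the 9 was 0.94, beside -0.032 over all genes tested. In the comparisons that followed, 4 were higher and 3 lower on Day5 (29% and 30.6% of all genes), 2 and 3 on Day7 (25.6% and 24.8%), 1 and 5 on Day10 (23.5% and 26.9%), 2 and 2 on Day12 (21.7% and 25.6%), and 2 and 5 on Day14 (28.2% and 34.5%). With counts scaled to library totals alone, without TMM, the share of calls that were higher moved from 45.8% to 67.4% over all genes on Day12 and from 45.0% to 56.2% on Day14. All 9 genes differed among the 6 wound days in a joint F test, which 85.1% of all genes also passed.

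The limits of the study's methods (a log2 change beyond 1.5 up or down, with an unadjusted p under 0.05) kept the larger changes. On Day3 these were Areg, Epgn, Hbegf and Nrg1 higher and Btc and Egf lower, 4 and 2 genes beside 6.5% and 12.4% of all genes. From Day5 on, 1 gene was higher on every day, Nrg1, beside 5.61% of all genes on Day5, 4.66% on Day7, 4.33% on Day10, 3.89% on Day12 and 5.15% on Day14. Lower by these limits were Egf on Day5 (1 gene, 8.31% of all genes), Day7 (1, 4.74%) and Day12 (1, 3.51%), Btc on Day10 (1, 5.14%), and Btc, Egf and Ereg on Day14 (3, 8.83%).

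**Figure D1:**
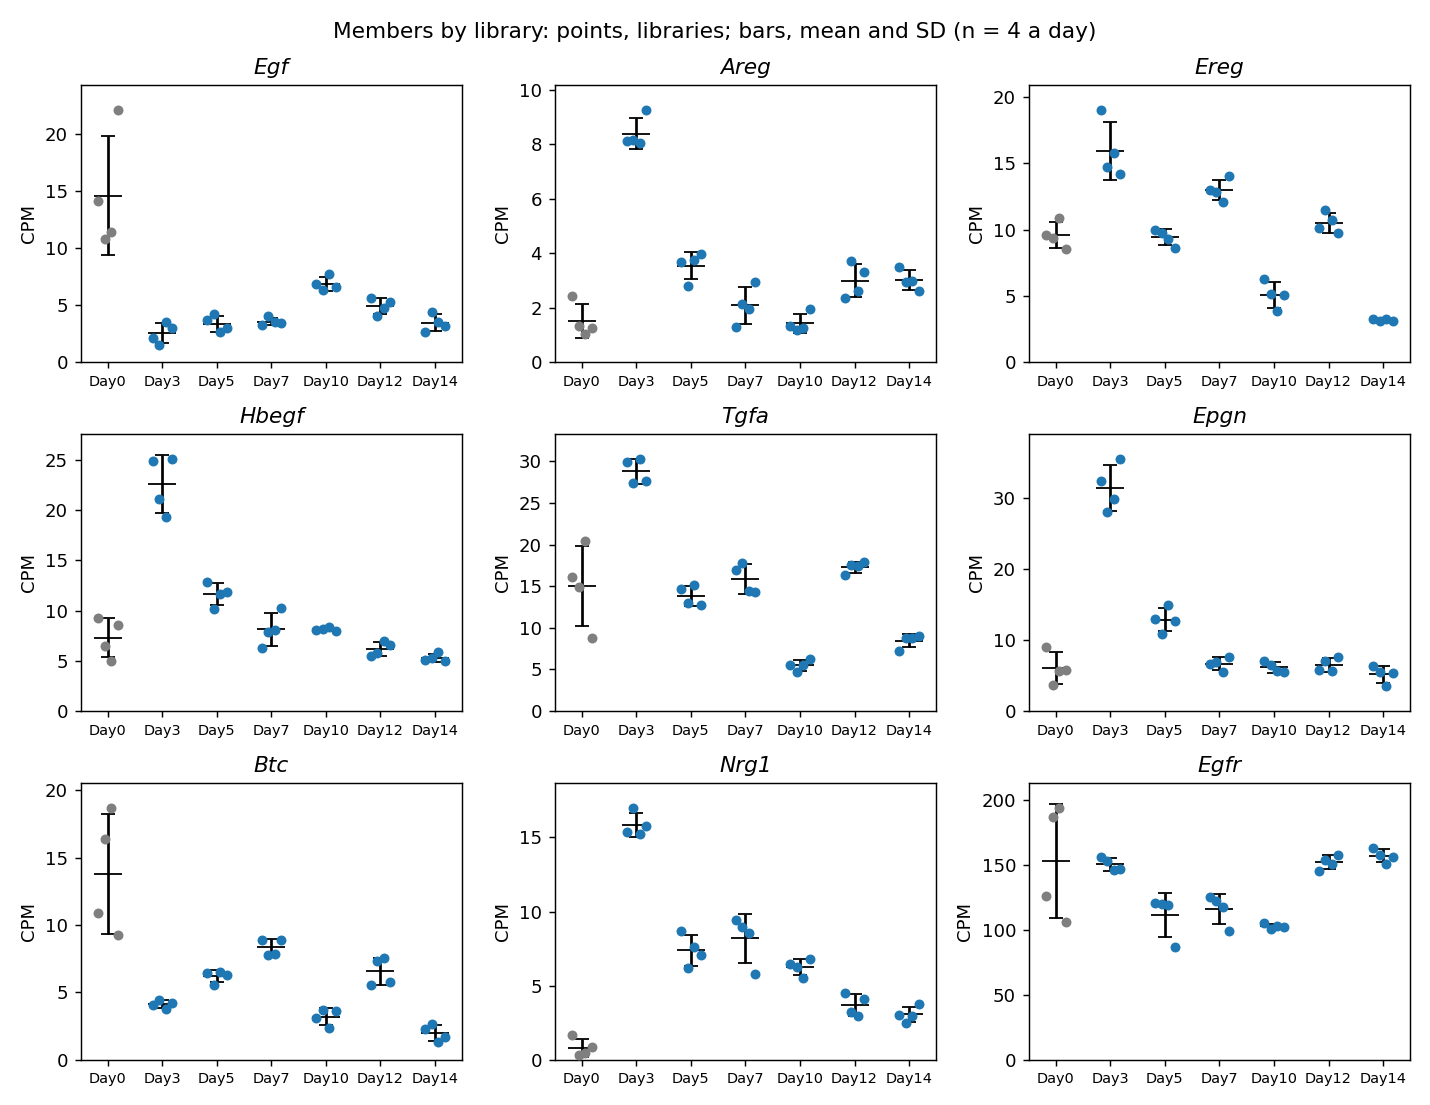
Level of each gene (CPM, linear axes from 0) in every library by day, with the mean and SD of 4 libraries a day and Day0 in grey. Areg, Hbegf, Tgfa, Epgn and Nrg1 stand highest on Day3, Egf and Btc stand highest on Day0, and the Day0 points of Egfr spread from 106 to 194 CPM.

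Epgn encodes epigen, the latest described ligand of the receptor and one with low affinity for it. Its level in the 4 Day3 libraries was 32.4, 28, 29.9 and 35.5 CPM, against 9.03, 3.69, 5.63 and 5.81 CPM on Day0. Every Day3 library was above every Day0 library, and the log2 fold change was 2.38 ± 0.19 (SE, n = 4 a day; edgeR adjusted p = 8.48e-12), a 5.20-fold difference. On Day5 the libraries held 13.0, 10.9, 14.9 and 12.7 CPM, all above Day0 (log2 fold change 1.09 ± 0.19, edgeR adjusted p = 1.09e-05) and all below Day3 (-1.29 ± 0.18, edgeR adjusted p = 3.72e-06). From Day7 to Day14 the daily means lay between 5.17 and 6.63 CPM and overlapped Day0, and no comparison of Epgn with all 4 Day0 libraries was called on these days. The direction of these later differences turned with the Day0 pair used. With replicates 2 and 3 alone Epgn was called higher on Day7 (0.51, edgeR adjusted p = 0.0232) and Day12 (0.49, edgeR adjusted p = 0.0308), and with replicates 1 and 4 alone it was called lower on Day14 (-0.44, edgeR adjusted p = 0.0451).

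Areg encodes amphiregulin, a ligand that keratinocytes make for themselves and that activates EGFR without being bound by the other receptors of the family. It stood at 8.10, 8.16, 8.03 and 9.25 CPM on Day3 and at 2.43, 1.34, 1.04 and 1.25 CPM on Day0. The groups did not overlap, and Areg was 5.53-fold higher on Day3 (log2 fold change 2.47 ± 0.23, edgeR adjusted p = 2.66e-10). It fell to 3.66, 2.81, 3.74 and 3.98 CPM on Day5 (-1.24 ± 0.21 against Day3, edgeR adjusted p = 7.65e-05) and had a mean of 1.43 CPM on Day10. A second, smaller rise followed. The Day12 libraries held 2.37, 3.71, 2.61 and 3.30 CPM, all above the Day10 range of 1.19 to 1.96 CPM (log2 fold change 1.07 ± 0.23, edgeR adjusted p = 0.000504). Against Day0, Areg was called higher on Day12 (0.98 ± 0.23) and Day14 (0.99 ± 0.23), although 1 Day0 library overlapped the Day12 range. The fall from Day5 to Day7 (-0.77 ± 0.23, edgeR adjusted p = 0.0106) was no longer called without Day7 replicate 1, where the log2 fold change was -0.60.

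Hbegf encodes heparin-binding EGF-like growth factor, which binds to cell-surface heparan sulfate and is made by keratinocytes and macrophages. The Day3 libraries held 24.9, 21.1, 19.3 and 25.1 CPM and the Day0 libraries 9.24, 6.47, 5.00 and 8.57 CPM. The lowest Day3 value was above the highest Day0 value, and Hbegf was 3.09-fold higher (log2 fold change 1.63 ± 0.15, edgeR adjusted p = 1.63e-10). On Day5 it stood between 10.2 and 12.8 CPM, higher than on Day0 (0.67 ± 0.15, edgeR adjusted p = 0.000325) and lower than on Day3 (-0.96 ± 0.14, edgeR adjusted p = 1.23e-05). By Day14 it was at 5.11, 5.26, 5.85 and 4.96 CPM, overlapping the lower end of the Day0 range. Its call there (log2 fold change -0.47 ± 0.15, edgeR adjusted p = 0.00884) was lost without Day0 replicate 1 (-0.26, edgeR adjusted p = 0.149) or replicate 4 (-0.31, edgeR adjusted p = 0.0979), with Day0 replicates 2 and 3 alone (-0.12, edgeR adjusted p = 0.532) and in 6 other fits (adjusted p up to 0.106).

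Tgfa encodes transforming growth factor alpha, the main EGFR ligand that keratinocytes of normal epidermis and hair follicles produce. Its exons share 118 bases with Gm43917, an unverified transcript of the opposite strand. It was at 29.9, 27.4, 30.3 and 27.6 CPM on Day3 and at 16.1, 14.9, 20.4 and 8.82 CPM on Day0. The Day3 values lay close together and above all Day0 values, a 1.91-fold difference (log2 fold change 0.94 ± 0.14, edgeR adjusted p = 1.93e-06). Later it moved up and down. It stood at 14.3 to 17.8 CPM on Day7, at 4.68 to 6.26 CPM on Day10, at 16.3 to 17.9 CPM on Day12 and at 7.26 to 8.98 CPM on Day14, and no 2 neighbouring ranges of these overlapped. The log2 fold changes from one to the next were -1.53 ± 0.15, 1.65 ± 0.15 and -1.03 ± 0.15 (edgeR adjusted p = 1e-08, 9.66e-10 and 2.22e-06). The sources give nothing on processing order, so a batch of libraries by day cannot be told apart from the day.

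Ereg encodes epiregulin, which binds EGFR and ERBB4. Its exons share 141 bases with an antisense gene, Gm19610, and since the counting is not stated to use strand, reads of the pair cannot be told apart. Ereg was at 19.0, 14.7, 15.8 and 14.2 CPM on Day3 and at 9.59, 9.37, 10.9 and 8.51 CPM on Day0, without overlap. The difference of 1.66-fold (log2 fold change 0.73 ± 0.11, edgeR adjusted p = 1.53e-06) had a 95% interval of 0.51 to 0.96 on the log2 scale, below those of Epgn (2.00 to 2.76) and Areg (1.99 to 2.94), which flank it on the chromosome. Over the last 4 days it fell, rose and fell between the same days as Tgfa, at 12.1 to 14.0 CPM on Day7, 3.83 to 6.25 CPM on Day10, 9.76 to 11.5 CPM on Day12 and 3.07 to 3.27 CPM on Day14. Unlike Tgfa, which was higher on Day14 than on Day10 (by 0.62 on the log2 scale, edgeR adjusted p = 0.00117), Ereg was higher on Day10 than on Day14 (by 0.68, edgeR adjusted p = 2.69e-05). The fall between Day12 and Day14, 3.31-fold, was the largest change of any of the 9 genes between consecutive days (log2 fold change -1.73 ± 0.12, edgeR adjusted p = 6.42e-12), with Btc next (-1.72 ± 0.20). Across all 28 libraries, log2 CPM of Ereg and Tgfa had a Pearson r of 0.83, given as a description of libraries that share their day.

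**Figure D2:**
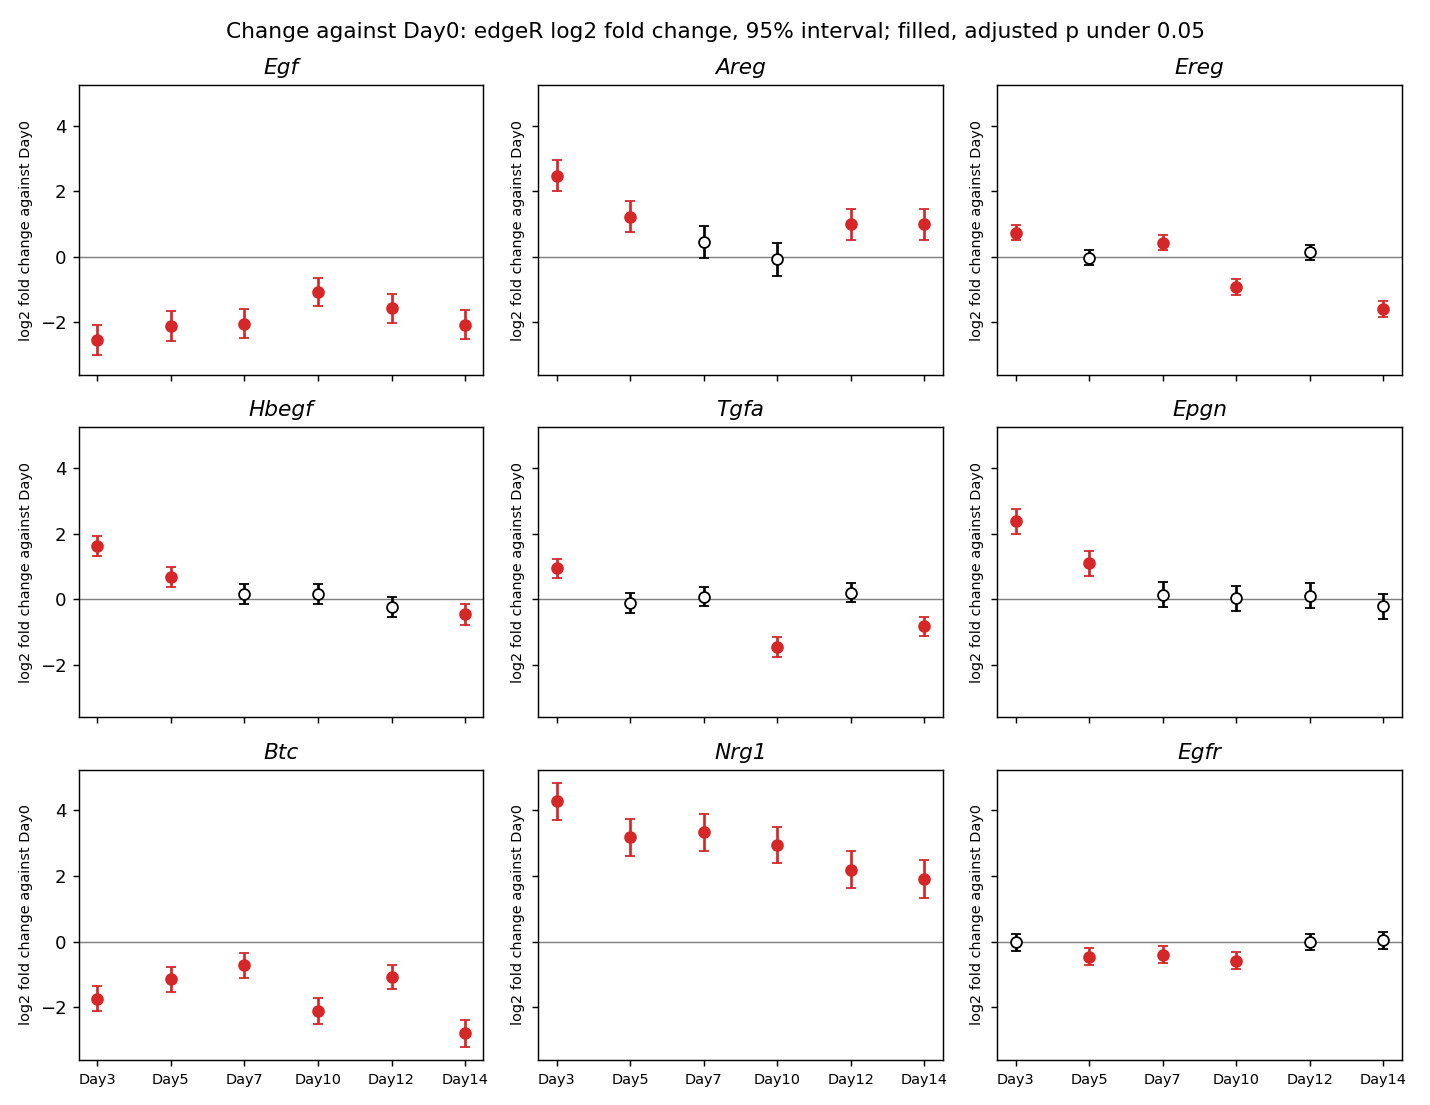
Log2 fold change against Day0 by edgeR for each gene and wound day, with 95% intervals (4 libraries a day). Filled red points have an adjusted p under 0.05 and open points do not. Nrg1 lies above 0 and Egf and Btc lie below 0 on all 6 days, and the intervals of Egfr reach no further than 0.84 from 0.

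Btc encodes betacellulin, a ligand of EGFR and ERBB4. The Day0 libraries held 10.9, 16.4, 18.7 and 9.29 CPM, with the higher values in replicates 2 and 3, and the Day3 libraries held 4.08, 4.46, 3.80 and 4.25 CPM. All Day3 libraries were below all Day0 libraries, a 3.33-fold difference (log2 fold change -1.74 ± 0.19, edgeR adjusted p = 5.52e-09). The summed suprabasal keratinocyte markers went from a mean of 3220 to 983 CPM between the same days, and Btc relative to them is given with those markers. Btc recovered in part to 8.88, 7.78, 7.88 and 8.90 CPM on Day7 and then stood at 2.35 to 3.67 CPM on Day10, 5.59 to 7.54 CPM on Day12 and 1.35 to 2.63 CPM on Day14. It was called lower than on Day0 on all 6 wound days, by 6.94-fold on Day14 (-2.79 ± 0.20, edgeR adjusted p = 2.26e-12). On Day7 the call (-0.73 ± 0.18) was lost with Day0 replicates 1 and 4 alone (-0.28, edgeR adjusted p = 0.197). The rise from Day3 to Day5 (0.58 ± 0.19, edgeR adjusted p = 0.0261) was lost when any of 6 of its 8 libraries was left out, which were all 4 of Day3 and Day5 replicates 1 and 3.

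Egf encodes epidermal growth factor itself, which is made in large amounts by kidney and salivary gland and at low levels in skin. Its exons share 607 and 500 bases with the antisense genes Gm42697 and 6330410L21Rik. The Day0 libraries held 14.1, 10.8, 11.4 and 22.1 CPM and the Day3 libraries 2.16, 1.5, 3.5 and 2.98 CPM. No wound library of any day reached the lowest Day0 library, and Egf was called lower on all 6 days. The difference was 5.77-fold on Day3 (log2 fold change -2.53 ± 0.22, edgeR adjusted p = 9.98e-11) and smallest on Day10, 2.13-fold (-1.09 ± 0.21, edgeR adjusted p = 7.78e-05). On Day10 the level was 6.83, 6.32, 7.75 and 6.60 CPM, above all Day7 libraries (0.95 ± 0.22, edgeR adjusted p = 0.00117).

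Skeletal muscle markers moved with Egf. The summed level of 6 of them (Acta1, Ckm, Myh4, Mylpf, Tnnt3 and Myh1) was 17100 to 29700 CPM on Day0 and 3880 to 10500 CPM on the wound days, and the highest wound day was Day10 (8180 to 10500 CPM). All 6 were called lower on every wound day, all 6 rose from Day7 to Day10, and none was at 0. Per 1000 CPM of these markers, Egf was 0.491 to 0.744 CPM on Day0 and 0.321 to 1.01 CPM over the wound days. On this scale Day7 (0.773 to 0.926 CPM) lay above Day0, and every other wound day overlapped it. Within Day0, replicates 1 and 4 had the higher levels of both. The part of muscle in the Egf result was not tested. In bulk tissue, fewer cells of a type and less RNA per cell cannot be told apart.

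Nrg1 encodes neuregulin 1, best known from nerves and Schwann cells. Its exons share 482 bases with Gm26578, a long non-coding RNA gene of the opposite strand. It showed the largest change of the 9 genes against Day0. The Day0 libraries held 63 counts at most and 12 at least (1.66, 0.303, 0.467 and 0.835 CPM), and the Day3 libraries held 15.4, 17.0, 15.2 and 15.8 CPM. Nrg1 was 19.4-fold higher on Day3 (log2 fold change 4.28 ± 0.27, edgeR adjusted p = 9.76e-14) and still 3.75-fold higher on Day14 (1.91 ± 0.28, edgeR adjusted p = 1.05e-06). These sizes depend on the few Day0 counts. Without Day0 replicate 1, which held the 63 counts, the log2 fold changes on the 6 wound days were 4.95, 3.81, 3.94, 3.56, 2.82 and 2.61, and on Day3 the value was 3.70 with Day0 replicates 1 and 4 and 5.36 with replicates 2 and 3. Nrg1 was called higher on all 6 wound days with no overlap on any. Daily means after Day3 were 7.39, 8.19, 6.27, 3.71 and 3.06 CPM, and of consecutive days Day5 was lower than Day3 (-1.10 ± 0.22, edgeR adjusted p = 0.000463) and Day12 lower than Day10 (-0.76 ± 0.23, edgeR adjusted p = 0.00973). Schwann cell markers went the other way. The sum of 4 of them (Mbp, Sox10, Cdh19 and Prx) was 296 to 449 CPM on Day0 and 85.1 to 148 CPM later, with all 4 called lower on each wound day and none at 0.

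**Figure D3:**
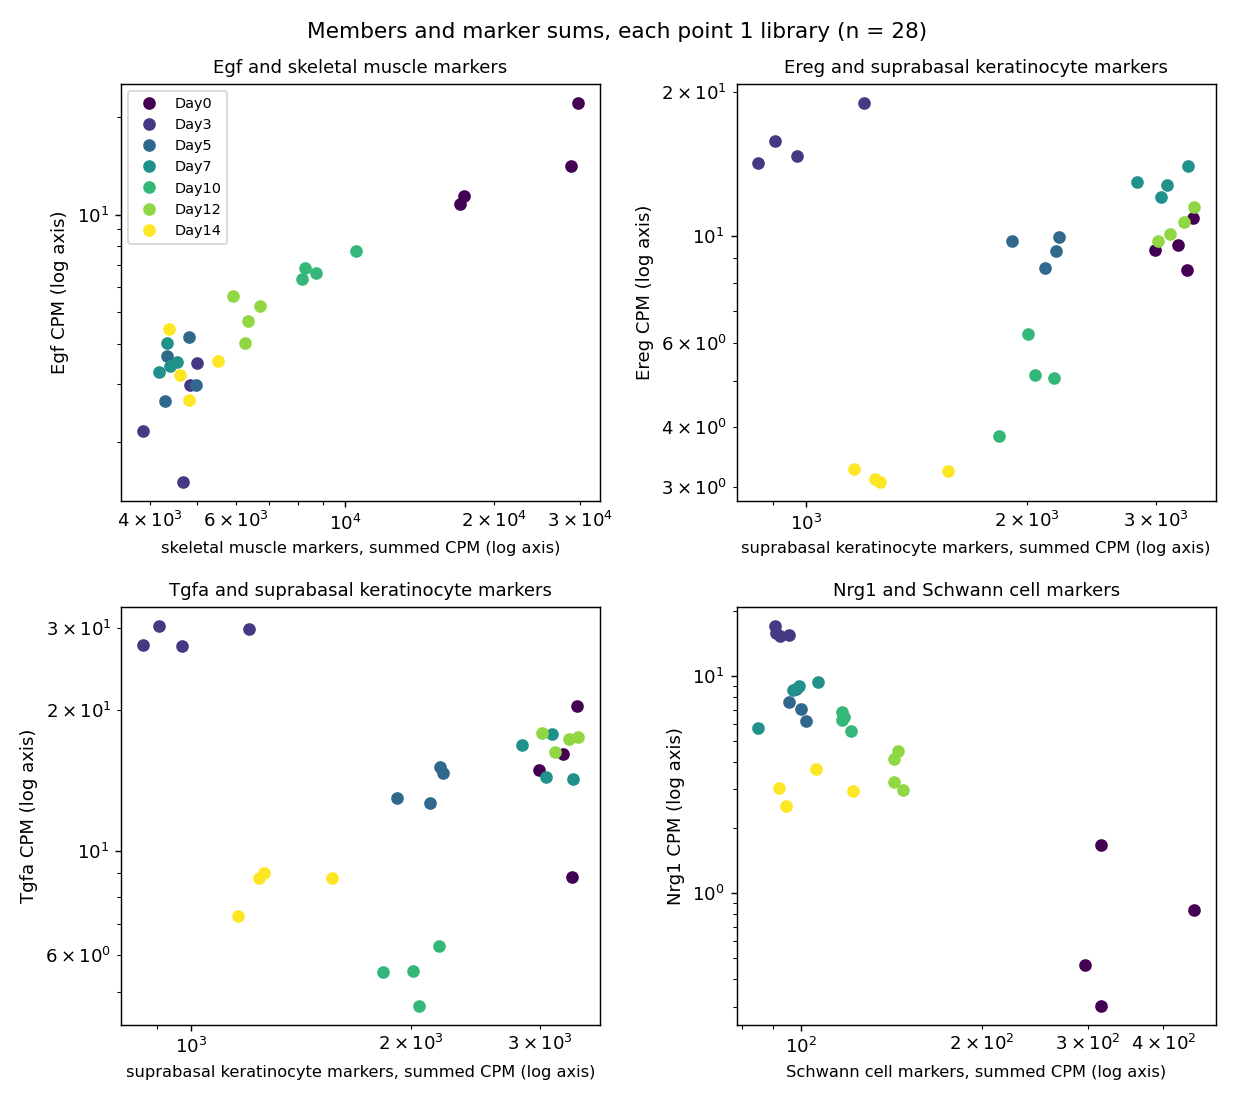
CPM of a gene against the summed CPM of a marker list, with both axes on a log scale, each point 1 of 28 libraries coloured by day. Egf and skeletal muscle markers are both highest on Day0, Nrg1 is lowest where Schwann cell markers are highest, and for Ereg and Tgfa the 4 Day3 libraries combine high levels with low suprabasal sums.

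Keratinocyte markers also changed between days. The sum of 6 suprabasal markers (Krt1, Krt10, Lor, Ivl, Flg and Dsg1a) was 2990 to 3370 CPM on Day0, 860 to 1200 CPM on Day3, 2830 to 3320 CPM on Day7, 1830 to 2180 CPM on Day10, 3020 to 3380 CPM on Day12 and 1160 to 1560 CPM on Day14, and none was at 0. From Day7 on it rose and fell on the same days as Ereg, Tgfa and Btc. The 6 markers were not uniform, with 1 called higher and 3 lower on Day10 against Day7. On Day12 against Day10, 4 were called higher and 0 lower, and on Day14 against Day12, 0 and 5. Flg went against the sum up to Day12, with means of 133, 224 and 161 CPM on Day7, Day10 and Day12. Per 1000 CPM of these markers, Ereg was at 2.09 to 3.11 CPM on Day10, 3.22 to 3.40 CPM on Day12 and 2.08 to 2.82 CPM on Day14. On the same scale Tgfa was at 2.28 to 3.02, 5.18 to 5.93 and 5.62 to 7.13 CPM, so its fall from Day12 to Day14 was not seen relative to these markers. On Day3 the ratio was far higher than on Day0 for Ereg and Tgfa, 15.1 to 17.5 against 2.57 to 3.23 CPM for Ereg and 24.9 to 33.5 against 2.66 to 6.05 CPM for Tgfa. Btc had 2.81 to 5.55 CPM on Day0 and 3.40 to 4.94 CPM on Day3 per 1000 CPM of these markers, so its Day3 fall was not seen relative to them, and 0.865 to 2.12 CPM on Day14. The sum of 4 wound edge keratins (Krt6a, Krt6b, Krt16 and Krt17) was 468 to 709 CPM on Day0 and 2450 to 2980 CPM on Day3, and that of 6 neutrophil markers was 15.1 to 41.9 CPM (1 marker at 0 in all 4 libraries) and 4250 to 5370 CPM. The 7 macrophage markers (Adgre1, Cd68, Csf1r, Mrc1, C1qa, C1qb and Lyz2) summed to 2000 to 2920 CPM on Day0 and 5280 to 5460 CPM on Day3, with all 7 called higher and none at 0. All 3 sums were higher on Day3 than on Day0, as were Epgn, Areg, Hbegf and Nrg1. Mean sums of sebaceous gland (5560 to 8890 CPM), endothelial (468 to 800 CPM) and brown adipocyte markers (261 to 1380 CPM) were higher too. The sebaceous gland list was split, with 2 of 5 markers called higher and 3 called lower. Of the 5 brown adipocyte markers 4 were called higher and 1 lower, and of the 5 endothelial markers 4 and 0. On Day5, when the 4 genes fell, the wound edge sum was 1700 to 2110 CPM and the neutrophil sum 1540 to 1950 CPM, both below Day3, while the macrophage sum stayed at 5440 to 5930 CPM. The part of cell composition in these results was not tested.

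Egfr, the receptor, had daily means between 103 and 157 CPM. It stood at 126, 187, 194 and 106 CPM on Day0 and at 156, 153, 146 and 147 CPM on Day3, where the groups overlapped and the log2 fold change was -0.025 (95% interval -0.28 to 0.23). On Day5 it was at 121, 120, 119 and 86.6 CPM, on Day7 at 125, 122, 118 and 99.2 CPM and on Day10 at 105, 101, 103 and 102 CPM. These 3 days were called lower than Day0 (log2 fold changes -0.46, -0.40 and -0.58, each ± 0.13, edgeR adjusted p = 0.00263, 0.00941 and 0.000346). The calls rested on Day0 replicates 2 and 3. The Day7 call was lost without replicate 2 (-0.29, edgeR adjusted p = 0.0625) or replicate 3 (-0.26, edgeR adjusted p = 0.078). With replicates 1 and 4 alone the values were -0.047, -0.001 and -0.18 and none was called, and on Day3, Day12 and Day14 the log2 fold change was 0.43, 0.41 and 0.51 with replicates 1 and 4 and -0.34, -0.32 and -0.28 with replicates 2 and 3, all 6 called. The position of Egfr relative to Day0 was therefore not settled by these libraries.

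The log2 fold changes of Egfr between wound days do not use the Day0 levels, although the fit of all 28 libraries estimates their spread with Day0 included. Egfr was lower on Day5 than on Day3 (log2 fold change -0.43 ± 0.13, edgeR adjusted p = 0.0121), although without Day5 replicate 4, the lowest library of all 28, the value was -0.33 and the call was lost. It was 1.48-fold higher on Day12 than on Day10, at 145, 154, 151 and 158 CPM (0.57 ± 0.13, edgeR adjusted p = 0.000616), with no overlap. On Day14 it stayed at 163, 158, 151 and 156 CPM (0.047 against Day12, 95% interval -0.21 to 0.30). Day10 was not called against Day7 (-0.18, edgeR adjusted p = 0.292), but was in a fit of those 8 libraries alone (-0.17, edgeR adjusted p = 0.0283). Hair follicle markers moved with the step from Day10 to Day12. The sum of 8 of them (Krt25, Krt27, Krt71, Krt35, Krt85, Tchh, Dsg4 and Msx2) was 277 to 319 CPM on Day10 and 4560 to 5970 CPM on Day12, with all 8 called higher. On other days they did not move together. The sum was 7.56 to 14 CPM on Day3, when Egfr (146 to 156 CPM) overlapped its Day12 range, and its mean went from 18.5 to 1550 CPM from Day5 to Day7, when Egfr was not called (0.058, edgeR adjusted p = 0.779). Per 1000 CPM of the fibroblast markers, Egfr was at 4.40 to 10.2 CPM on Day0, 11.2 to 12.1 on Day3, 2.72 to 3.22 on Day10, 4.63 to 5.81 on Day12 and 11.6 to 14.8 on Day14. Most of the fibroblast sum was Col1a1 and Col1a2 (means of 11100 and 11500 CPM on Day0, 5150 and 4210 CPM on Day3). Pdgfra of the same list went the other way on Day3, from 143 to 285 CPM. Of the 6 markers, 1 was called higher and 5 lower on Day3. The part of either cell type in the Egfr result was not tested.

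Between consecutive days the 9 genes were called higher and lower as follows, beside the share of all genes. On Day5 against Day3, 1 rose and 7 fell (12.9% and 11.4%), with Egf not called, and 7 of the 9 genes had all 4 Day5 libraries below all 4 Day3 libraries, as did 14.7% of all genes. On Day7 against Day5, 1 rose and 3 fell (13.9% and 14.6%). On Day10 against Day7, 1 rose and 3 fell (14.3% and 18%). On Day12 against Day10, 5 rose and 2 fell (18.7% and 20.7%), and the fall of Hbegf (-0.39 ± 0.15, edgeR adjusted p = 0.0383) was lost without any 1 of 6 libraries (all 4 of Day10 and Day12 replicates 1 and 2). On Day14 against Day12, none rose and 3 fell (19.9% and 25.3%). Consecutive comparisons share the libraries of the day between them.

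By the limits of the study, fewer genes passed between consecutive days. These were Tgfa, lower on Day10 than on Day7 (1 of 9, beside 3.22% of all genes, with 0 higher beside 1.39%) and higher on Day12 than on Day10 (1 of 9, beside 3.47%, with 0 lower beside 2.54%), and Btc and Ereg, lower on Day14 than on Day12 (2 of 9, beside 2.78%, with 0 higher beside 0.79%). None of the 9 passed on Day5 against Day3 (2.23% of all genes higher and 0.685% lower) or on Day7 against Day5 (2.5% and 1.16%), where edgeR at an adjusted p under 0.05 called 8 and 4.

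Levels of different genes were compared per gene length, as FPKM, the unit of the second deposited table. On Day0, Btc had the highest mean of the 8 ligands, 4.70 ± 1.52 FPKM (SD, n = 4), which was 22.6% of their summed FPKM, followed by Epgn with 3.46 ± 1.25, Tgfa with 3.10 ± 0.99 and Hbegf with 3.01 ± 0.79. These neighbours in the order lay within each other's spread. On Day3, Epgn held 17.3 ± 1.72 FPKM (38.9% of the sum), ahead of Hbegf with 8.94 ± 1.14, Areg with 6.48 ± 0.40 and Tgfa with 5.70 ± 0.32. Btc had dropped to 1.35 ± 0.093 FPKM, 3.04% of the sum, and Egf to 0.495 ± 0.17 FPKM, the lowest of the 8. Epgn kept the highest mean of the 8 on every later day, but from Day7 on its lead over the next gene was smaller than its own SD. The means were 3.82 ± 0.55 FPKM beside Hbegf at 3.36 ± 0.72 on Day7, 3.66 ± 0.48 beside Hbegf at 3.47 ± 0.043 on Day10, 4.13 ± 0.64 beside Tgfa at 3.93 ± 0.20 on Day12, and 3.25 ± 0.78 beside Areg at 2.64 ± 0.30 on Day14. Nrg1 had the lowest FPKM on every day except Day3, when Egf was lower, and its value was computed with a length of 23207 bases, so its FPKM depends on that choice of length.

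**Figure D4:**
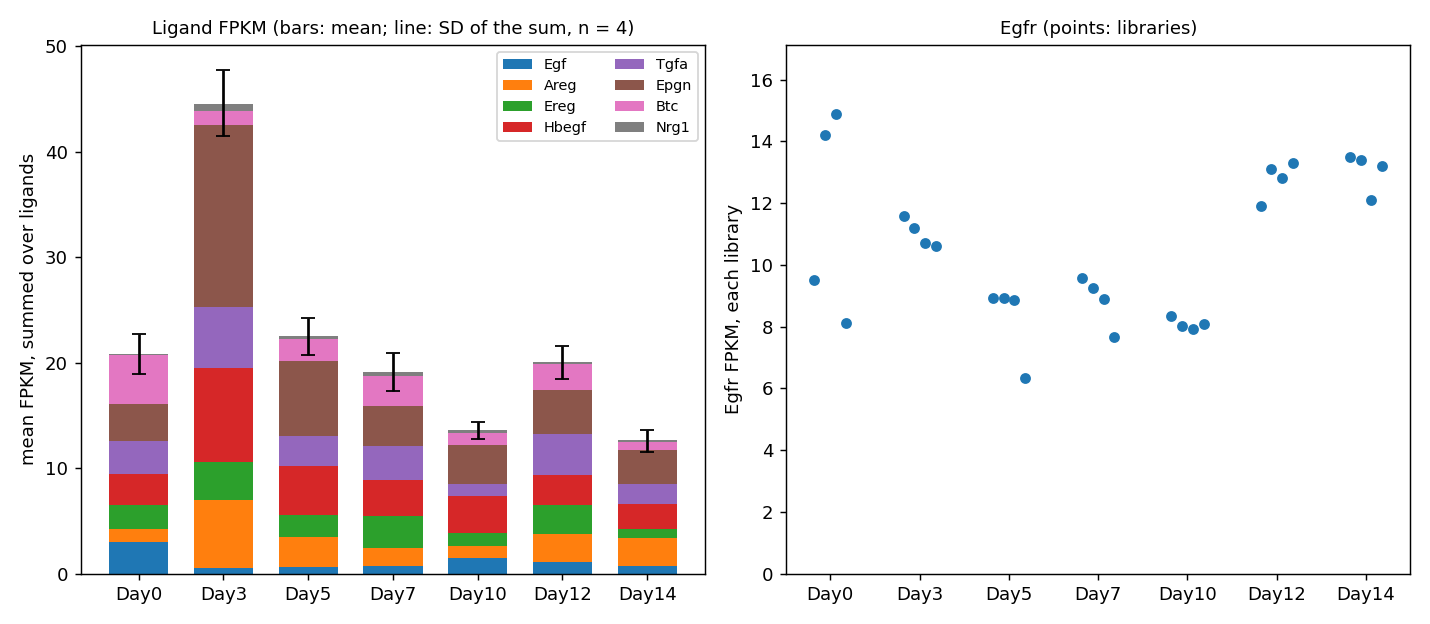
Left, mean FPKM of the 8 ligand genes stacked by day, with the SD of the sum over 4 libraries. Right, Egfr FPKM in each library, from 0. The ligand sum is highest on Day3 (44.6 FPKM) and lowest on Day14 (12.6 FPKM), while Egfr stays between 6.33 and 14.9 FPKM.

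The summed FPKM of the 8 ligands was 18.9 to 23.0 on Day0, 41.4 to 47.4 on Day3 and 20.2 to 24.2 on Day5. It was then 17.5 to 21.6 on Day7, 12.5 to 14.4 on Day10, 17.8 to 21.3 on Day12 and 11.3 to 13.5 on Day14. The Day3 libraries lay above all others. Divided by Egfr FPKM of the same library, the sum was 1.33 to 2.42 on Day0, 3.69 to 4.46 on Day3 and 0.931 to 1.01 on Day14. The sum includes Nrg1, which does not bind EGFR and made up 0.165% (Day0) to 2.02% (Day10) of it. The Day0 ratio rests on Egfr levels that differed between the pairs of Day0 replicates. A ratio of transcripts is not a ratio of proteins, and release of the ligands is not measured by RNA.

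Of the other receptors and neuregulins of the family, 5 of 6 were tested. Erbb2, the receptor with no ligand of its own, which pairs with the others, was at 55.6 to 63.2 CPM on Day0, 29.9 to 39.5 CPM on Day3 and 68.9 to 80.0 CPM on Day14, with no overlap (log2 fold change -0.83 ± 0.069 on Day3 and 0.30 ± 0.068 on Day14, edgeR adjusted p = 3.03e-11 and 0.000393). Erbb3, the main partner of neuregulins in epithelium, fell on Day3 from 70.1 to 94.2 CPM to a range of 31.6 to 39.4 CPM (-1.22 ± 0.095, edgeR adjusted p = 6.43e-12), so it was low when Nrg1 was at its highest. Erbb4, the other receptor of Nrg1, had 2 to 60 counts per library. It was at 0.343 to 0.64 CPM on Day0 and 0.897 to 1.54 CPM on Day3, without overlap (1.36 ± 0.31, edgeR adjusted p = 0.000327), was also called higher on Day5, Day7 and Day10, and was called lower on Day12 (-1.38 ± 0.36, edgeR adjusted p = 0.00259), at 2 to 10 counts. Nrg2 was at 3.12 to 3.78 CPM on Day0, 0.628 to 0.925 CPM on Day3 (-2.18 ± 0.19, edgeR adjusted p = 9.92e-11) and 7.88 to 9.43 CPM on Day14 (1.33 ± 0.17, edgeR adjusted p = 7.26e-08). Nrg4 was called higher than on Day0 on all 6 wound days, at 28 to 36 CPM on Day3 and 16 to 30.8 CPM on Day0 (0.68 ± 0.14, edgeR adjusted p = 0.000113), where 1 Day0 library overlapped. Nrg3 had 0 to 5 counts in each library and was not tested.

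A list of 50 genes around the receptor held these 6, 6 for ligand release, 14 for restraint of the receptor, 12 adaptors and relay kinases and 12 response genes. Of the 49 tested, 27 were called higher on Day3 and 13 lower, beside 31.8% and 34.8% of all genes, with a median log2 fold change of 0.45 beside -0.032 over all genes. On Day14, 21 were higher and 18 lower, beside 28.2% and 34.5% of all genes, with a median of 0.019 beside -0.056.

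Of the 6 genes for ligand release, 5 were higher on Day3 and 1 lower (31.8% and 34.8% of all genes). They were led by Adam12, a membrane protease able to shed HB-EGF, which went from a mean of 14.8 CPM on Day0 to 98.4 CPM (log2 fold change 2.74 ± 0.17, edgeR adjusted p = 4.18e-14). Adam9, another membrane protease, came next (1.37 ± 0.061, edgeR adjusted p = 6.47e-17). Adam17, the main sheddase of Areg, Tgfa and Hbegf, went from 69.0 to 126 CPM (0.87 ± 0.073, edgeR adjusted p = 2.79e-11). Rhbdf1, an inactive rhomboid that helps ADAM17 mature, was the member that fell (-0.63 ± 0.059, edgeR adjusted p = 3.86e-10). On Day14, 2 were higher and 2 lower (28.2% and 34.5% of all genes), from Adam12 (2.13 ± 0.17, edgeR adjusted p = 1.02e-11) to Adam9 (-0.43 ± 0.061, edgeR adjusted p = 7.19e-07).

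Of the 14 genes that restrain the receptor or its signal, 7 were higher and 4 lower on Day3 (31.8% and 34.8% of all genes). Dusp5, a phosphatase of nuclear ERK, stood highest (2.24 ± 0.098, edgeR adjusted p = 4.11e-17), and Lrig3, a transmembrane protein of a family that down-regulates ERBB receptors, lowest (-1.46 ± 0.074, edgeR adjusted p = 8.93e-16). On Day14, 7 were higher and 6 lower (28.2% and 34.5% of all genes). Dusp6, the phosphatase of cytoplasmic ERK, was then highest (0.89 ± 0.061, edgeR adjusted p = 9.17e-13) and Errfi1, which binds and blocks the EGFR kinase, lowest (-1.03 ± 0.074, edgeR adjusted p = 2.75e-12). Of the 12 adaptors and relay genes, 5 were higher and 4 lower on Day3 (31.8% and 34.8% of all genes), from Grb2 (0.71) to Hras (-0.42), so these counts were near the share of all genes. On Day14, 3 were higher and 4 lower (28.2% and 34.5% of all genes), from Hras (0.82) to Gab1 (-0.34).

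Of the 12 genes known to respond to EGFR signalling, 8 were higher on Day3 and 1 was lower (31.8% and 34.8% of all genes). Plaur, the urokinase receptor, showed the largest rise, from a mean of 10.7 to 102 CPM (3.26 ± 0.17, edgeR adjusted p = 1.96e-15), and Ccnd1, cyclin D1, was the one that fell (-0.83 ± 0.083, edgeR adjusted p = 1.11e-09). On Day14, 6 were higher and 5 lower (28.2% and 34.5% of all genes). Etv4, a transcription factor of the ETS family, was then highest (2.76 ± 0.18, edgeR adjusted p = 1.99e-13), at a mean of 44.9 CPM against 6.64 CPM on Day0, and Hmga2, a chromatin protein, was lowest (-2.87 ± 0.60, edgeR adjusted p = 0.000149). Plaur is also expressed by neutrophils and macrophages, whose marker sums on Day0 and Day3 are given with the keratinocyte markers. Etv4 is also expressed in growing hair follicles, whose 8 markers summed to 251 to 2180 CPM on Day0 and 4150 to 5580 CPM on Day14. The part of these cells was not tested.

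Genes whose log2 CPM ran most like that of each member over the 28 libraries were found by Pearson r among 14684 genes with a mean of at least 1 CPM. These were Dhrs7c (r = 0.96) and Jph1 (0.96) for Egf, Stk17b (0.94) and Ier2 (0.93) for Areg, Sdr9c7 (0.96) and Lrmp (0.93) for Ereg, and Flot1 (0.96) and Trim8 (0.96) for Hbegf. For Tgfa they were Ptk6 (0.93) and Marchf3 (0.92), for Epgn Gch1 (0.95) and Il17ra (0.95), for Btc Skint3 (0.95) and F830045P16Rik (0.95), and for Nrg1 Tnc (0.97) and Csgalnact1 (0.96). Egfr had the weakest partners, Nrcam (0.86) and Srebf2 (0.84). Among the 9 genes themselves, Hbegf and Epgn were most alike (0.92) and Egf and Nrg1 least alike (-0.74). Libraries of a day share that day, so these values describe 7 groups of 4 libraries and carry no p-value.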

How the data were processed

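Total RNA of wound-site skin was extracted with TRIzol and made into libraries with the VAHTS Universal V6 kit. The submitters' processing notes name fastp, R 3.2.0 and the build mm10. The aligner, counting tool, annotation and strand setting are not given in the sources used here. The authors deposited raw counts per gene symbol and, for the same genes and libraries, FPKM values. No other samples' columns were in the tables.

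Counts were tested in R 4.3.3 with edgeR 4.0.16 (quasi-likelihood F test, two-sided, TMM factors, filterByExpr by day). The fit held 28 libraries with the day as its only term, and p-values were adjusted over 18107 genes. CPM used TMM-scaled totals, log2 CPM a prior count of 2. A gene at 0 counts allows up to 3 counts, and counting error is all such limits cover. FPKM served to compare genes. Named genes outside the 9 were the other family members, the highest and lowest of each pathway list on Day3 and Day14, and the 2 genes most like each member. Adam17, and Adam9 on Day3, were added after their values were seen. The members, lists and rules were chosen with earlier results of these data known. Alternatives were DESeq2 1.42.0, other scalings and filters, 8-library fits, limma 3.58.1 (voom, log2(FPKM + 1), log2(FPKM + 0.1)), the replicate number as a block, the limits of the study (log2 fold change over 1.5, p under 0.05) and each library left out. Single pairs of Day0 libraries were added after seeing the data. On simulated counts for Day3 against Day0 (17717 genes, 200 changed), edgeR recovered 92 of 100 genes changed 2-fold and 98 of 100 changed 4-fold, with 11 false calls. These counts were drawn with the same spread on every day. The rates do not carry over to the real comparison, where Day0 varied more and 31.8% and 34.8% of genes were called. Motifs and positions came from RefSeq and GENCODE M21 in Python 3.11.15. The promoters of Ereg, Nrg1 and Hbegf were not used here, and some markers of the cell type lists are not reported here.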

Additional observations from a re-analysis of the deposited data

Results flagged for a closer look

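In 63 groups of 4 libraries (9 genes on 7 days), 3 had a highest or lowest library far from the others by log2 CPM, and about 1 in 20 groups would by chance. The gap to the nearest library, as a share of the range of the 4, was 0.891 for Areg on Day3 (replicate 4, highest, 9.25 CPM), 0.889 for Tgfa on Day14 (replicate 1, lowest, 7.26 CPM) and 0.948 for Egfr on Day5 (replicate 4, lowest, 86.6 CPM), each past Dixon's 95% limit for 4 samples. The Egfr library decides the call of Day5 against Day3, as given above. The causes were not tested.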

How the results depend on the processing

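Of the log2 fold changes of the 9 genes, 1126 values under other tools, scalings and filters kept their direction and side of the threshold, 12 lost and 17 gained a call, and 22 changed sign. With 1 library left out the numbers were 735, 18, 9 and 30. All these sign changes were of uncalled differences. Depth limited Nrg3 (0 to 5 counts a library, not tested), Erbb4 (2 to 60) and Nrg1 on Day0 (12 to 63).

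By the limits of the study, members higher and lower were 1 and 1 on Day5, Day7, Day10 and Day12 against Day0, and 1 and 3 on Day14, with the shares of all genes given above. Between consecutive days they were 0 and 0 on Day5 and on Day7, 0 and 1 on Day10, 1 and 0 on Day12, and 0 and 2 on Day14. Under log2(FPKM + 1) with a mean FPKM of at least 1, which drops Nrg1, members higher were 1 on Day7, 0 on Day10 and 1 on Day14 against Day0 and 2 on Day7 against Day5, and 0 were lower on Day12 against Day10. Of the 12954 genes of that fit, 3941, 4153, 5674 and 2500 were higher and 2260 were lower in the same comparisons. Without that filter, log2(FPKM + 1) gave 4 higher on Day12 against Day0, beside 6202 of all 18107 genes. Both FPKM pseudocounts and library totals gave 1 lower on Day12 against Day10, beside 2781 (pseudocount 1), 2741 (pseudocount 0.1) and 2744 (totals) of all genes. Library totals left 4 pathway genes lower on Day12 (11 with TMM), beside 2943 of all 18107 genes (4634 with TMM). The 8-library fit gave 2 higher on Day7 against Day5 (2622 of 16680 genes) and 5 lower on Day10 against Day7 (3735 of 16791). Under voom 2 were higher on Day7 against Day5 (2480 of 18107 genes). With 1 library left out, members higher on Day5 against Day3 ranged from 0 to 1 and members lower on Day12 against Day10 from 1 to 2. The share of all genes was not computed for those fits. The cause was not tested where none is named.

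With single pairs of Day0 libraries, an alternative chosen after seeing the data in which 2 libraries stand for the day, 5 members were higher on Day7 and 2 on Day10 (replicates 2 and 3), and 1 was lower on Day7 and 4 higher on Day12 (replicates 1 and 4). The share of all genes was not computed for these pairs, so the counts cannot be read as a trait of the members. Signs changed with replicates 1 and 4 for Egfr (0.425 on Day3, 0.405 on Day12), Ereg (0.066) and Tgfa (0.163) on Day5, Hbegf (-0.13 on Day7, -0.132 on Day10) and Epgn (-0.165 on Day7, -0.275 on Day10, -0.175 on Day12). With replicates 2 and 3 they changed for Tgfa (-0.15 on Day7, -0.028 on Day12), Areg (0.267 on Day10), Hbegf (0.113 on Day12), Epgn (0.155) and Egfr (-0.275) on Day14.

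Other sign changes were small. Egfr was 0.020 on Day3 under voom, and on Day12 0.133 under library totals, 0.033 under voom, 0.009 under the replicate block, 0.161 under log2(FPKM + 1) with and without the filter and 0.177 under log2(FPKM + 0.1). Areg on Day10 was 0.015 under log2(FPKM + 0.1). Hbegf on Day10 against Day7 was 0.004 (DESeq2, its size factors and the replicate block), 0.039 (upper quartile), 0.046 (library totals), 0.021 (no filter), 0.007 (8 libraries), 0.018 (voom), 0.050 and 0.068 (FPKM). Areg on Day14 against Day12 was -0.016 under library totals and -0.002 under log2(FPKM + 1). With 1 library left out, values that crossed 0 against Day0 ranged from -0.115 to 0.111 (Egfr, Day3), -0.070 to 0.033 (Ereg, Day5), -0.293 to 0.058 and -0.110 to 0.260 (Tgfa, Day5 and Day7), -0.038 to 0.398, -0.150 to 0.289, -0.061 to 0.389 and -0.353 to 0.120 (Epgn, Day7, Day10, Day12 and Day14), -0.273 to 0.243 (Areg, Day10), and -0.134 to 0.129 and -0.025 to 0.216 (Egfr, Day12 and Day14). Between consecutive days they ranged from -0.036 to 0.198 (Egf) and -0.044 to 0.112 (Egfr) on Day7, -0.111 to 0.138 (Hbegf) on Day10 and -0.083 to 0.132 (Areg) on Day14.

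The replicate numbers share only a number. Of 84 pairs of same-numbered libraries, 1 had deviations correlated above 0.1 (median -0.001), and the replicate block moved no count of members called. Apart from the Day0 pairs, calls lost in 1 alternative or more are Egfr on Day5 (adjusted p = 0.0769) and Day7 (0.102) in 8-library edgeR fits, Hbegf on Day14, and Hbegf on Day12 against Day10 (adjusted p up to 0.113). With 1 library left out, those of Egfr on Day7 (without Day0 replicate 2 or 3), Btc and Egfr on Day5 against Day3 and Areg on Day7 against Day5 were lost too. Library totals moved the median log2 fold change of all genes from -0.037 to 0.107 on Day12 and from -0.056 to 0.070 on Day14, and log2(FPKM + 0.1) moved it to 0.104 and 0.066. Scaling moved the share of calls that were higher on Day12 against Day10 from 47.5% to 63.7% (totals), on Day10 against Day7 from 44.2% to 55.5% (totals) or 54.7% (upper quartile) and on Day7 against Day5 from 48.8% to 58.9% (totals) or 60.4% (upper quartile).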
